A study of Rattus norvegicus with 12 samples.

Results

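The cytosolic ribosomal protein genes code for the proteins of the ribosome that translates messenger RNA in the cytosol. Genes of the deposited table were taken when their rat symbol, found by Entrez identifier, was Rpl or Rps followed by a number with at most a short suffix, and Rplp0, Rplp1, Rplp2 and Rpsa were added. This gave 81 of 16511 genes, namely 3 genes of the stalk, 48 other genes of the large subunit and 30 genes of the small subunit. Kinases named Rps6k, Rps19bp1, mitochondrial ribosomal proteins and pseudogenes were left out, and Rpl37, Rps27a, Rps4x and Rps9 under these symbols were not analysed here.

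The libraries are labelled as 12 snap-frozen mammary glands of rats at PND21, with 1 gland from each litter. The HFB group held 6 glands of rats exposed before birth to a high fat butter diet, and the CTL group held 6 glands of rats whose dams had the control AIN diet. The description of the series starts the exposure on gestation day 1 and gives PND 23 as its end. It also gives AIN alone to the newborns from PND 0, so the exposure window was not settled from it. The labels do not give the strain. The study's methods name SD rats, with dams on the experimental diets through mating and gestation and on control AIN-93G once pups were born. However, they describe RNA sequencing of microdissected epithelia with other groups, and may not apply to these libraries. Libraries are named by diet and library number, HFB 1 to 6 and CTL 7 to 11 and 14. The total count was 2320267 to 2760871 in the HFB libraries and 2403464 to 2944680 in the CTL libraries. Levels are given as CPM, which are counts scaled to a common library total, with totals corrected by TMM, a method that sets the libraries to a common level over most genes. At these depths 3 counts, taken as the lowest level that can be told from 0, correspond to 1.02 to 1.29 CPM before this correction, a limit that covers counting error only.

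Ribosomal proteins are made in matched amounts and assembled with ribosomal RNA in the nucleolus into a large and a small subunit. The large subunit forms peptide bonds and carries the stalk, to which elongation factors bind, while the small subunit reads the messenger RNA. Most of their messenger RNAs begin with a run of pyrimidines, the terminal oligopyrimidine motif, through which mTOR signalling controls their translation.

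The annotated starts of the genes show how common this run is. A promoter window of 250 bases before and 50 after the annotated start was found in the RefSeq table of the GRCr8 assembly for 65 of the 81 genes. A pyrimidine tract, defined as a C followed by at least 4 bases that are each C or T, with the C at most 5 bases from the start on the gene's own strand, was found in 37 of the 65 windows, or 56.9% (95% Wilson interval 44.8% to 68.2%). It was found in 17.0% of all 33469 windows of the table. With the C allowed within 20 bases of the start, the shares were 83.1% and 47.8%. A match is a description of these letters only.

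The windows from 10 bases before to 20 bases after the start are shown for genes described below by the fixed naming rule, where they had a window, to let the tract be read next to their values. Genes named outside this rule, after their values were seen, are not shown. The rule itself picked some of the shown genes by their p-values or variation in these data, among them Rps2, Rps28 and Rpl7a. The windows are written 5′ to 3′ on the gene's strand with GRCr8 positions, and capitals mark the tract. In these genes a tract was found:
Rpl10 (chrX:157205840-157205869, + strand): gtgggagcgtCTCTTTTCCTCTggcgcggt
Rpl19 (chr10:83519054-83519083, + strand): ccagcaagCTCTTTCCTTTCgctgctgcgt
Rpl22 (chr5:168117951-168117980, + strand): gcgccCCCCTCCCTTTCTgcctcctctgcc
Rpl36a (chrX:102059439-102059468, + strand): tataaaCTTCCgttgctgctctagcctctc
Rpl39 (chrX:121195877-121195906, - strand): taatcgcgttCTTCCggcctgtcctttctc
Rpl9 (chr14:43247580-43247609, + strand): aggacgttCTCTCTTTgccccatctactgc
Rplp0 (chr12:46718371-46718400, - strand): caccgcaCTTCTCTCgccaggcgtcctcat
Rplp1 (chr8:71290853-71290882, - strand): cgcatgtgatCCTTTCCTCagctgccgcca
Rps26 (chr7:1643385-1643414, - strand): ccgccgggtCCTCTTTCgagtcttggctcc
Rps27 (chr2:177964587-177964616, - strand): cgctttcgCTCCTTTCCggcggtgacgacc
Rps28 (chr7:15311314-15311343, - strand): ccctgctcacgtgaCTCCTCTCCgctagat

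The next windows have no tract with its C at most 5 bases from the annotated start. In some of them, such as those of Rps2 and Rpl38, a run of the same kind begins further from the start, in small letters:
Rpl22l1 (chr2:113683186-113683215, + strand): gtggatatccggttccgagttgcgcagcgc
Rpl27l2 (chr1:162566045-162566074, - strand): tgctgttgagttgggcaaggtcaggaaacc
Rpl3 (chr7:113507971-113508000, - strand): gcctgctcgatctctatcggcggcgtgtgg
Rpl36al1 (chr6:93392239-93392268, - strand): cttccgctccatccgtccctttcctgttcg
Rpl38 (chr10:100200425-100200454, + strand): ttctttttccgttgttcggtgctcgctcct
Rpl39l1 (chr10:5966602-5966631, - strand): caggccgtcccgctatcctggtgtgtggtc
Rpl3l (chr10:14258436-14258465, + strand): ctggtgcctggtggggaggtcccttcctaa
Rpl7a (chr3:30637126-30637155, + strand): ctccagccgagcaagatggtgagtgattat
Rplp2 (chr1:205975911-205975940, + strand): cgccgccggacgccgccgaggtcgcacgcg
Rps12l4 (chr7:25007010-25007039, - strand): ggcacagaatgctggcgcagggtgcagcgt
Rps2 (chr10:14251838-14251867, + strand): tctttttcttcgggaaaacacgtgagtctg
Rpsa (chr8:128728869-128728898, + strand): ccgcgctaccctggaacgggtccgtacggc

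Other motifs were searched on both strands of the whole window. CCGGAAG was found in 29.2% of the ribosomal protein windows and in 8.75% of all windows. AAGATGGC was found in 7.69% and 3.17%, and TATAAA, the core of the TATA box, in 10.8% and 14.2%. No test was made of these shares.

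The 81 genes together took between 4.20% and 10.3% of the counts of a library. In the HFB group the lowest share was 4.26%, the median 5.46% and the highest 10.3%, and in the CTL group these were 4.20%, 5.13% and 8.74%. HFB 6 and CTL 14 were the highest libraries of their groups, followed by HFB 5 with 7.04%, and the ranges of the diets overlapped. The mean share was 6.25 ± 2.18% (SD, n = 6) in HFB and 5.59 ± 1.63% (SD, n = 6) in CTL. On the TMM scale the summed level was 65245 ± 24164 CPM (SD, n = 6) in HFB and 54025 ± 12962 CPM (SD, n = 6) in CTL, and the mean log2 level was 0.23 higher in HFB. This difference was smaller than the pooled SD of 0.41 between libraries of a diet. It was 0.07 without HFB 6, 0.36 without CTL 14 and 0.14 with library totals alone. In bulk samples such as these, fewer cells of a type and less RNA per cell cannot be told apart.

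**Figure D1:**
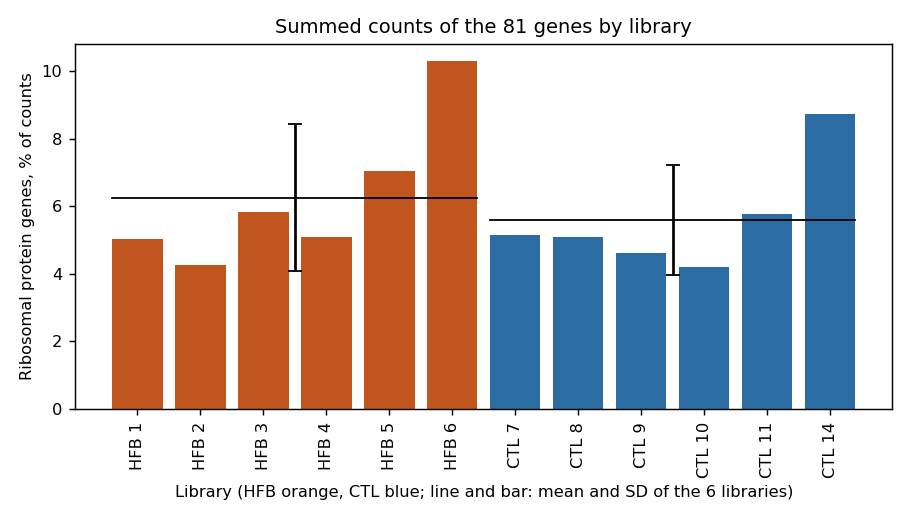
Summed counts of the 81 ribosomal protein genes as a percentage of all counts in each library, with HFB in orange and CTL in blue; lines and bars give the mean and SD of the 6 libraries of a diet. HFB 6 at 10.3% and CTL 14 at 8.74% stand highest, and the ranges of the diets overlap.

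The libraries in which ribosomal protein genes were high also differed in markers of cell types. The 5 measured of 6 listed B lymphocyte markers summed to 369 CPM in HFB 6 and 397 CPM in CTL 14, and to at most 57.6 CPM in the other libraries. By CPM over the 12 libraries Cd79b, part of the B cell receptor, was the most abundant of them, with 263 CPM in HFB 6. Cr2 and Pax5 had 4.41 and 0.802 CPM in HFB 6, below their 7.40 and 1.65 CPM in HFB 1. The 6 T lymphocyte markers, of which the kinase gene Lck was the most abundant over all libraries and Cd3d in HFB 6, summed to 803 CPM in HFB 6 and 805 CPM in CTL 14, and to at most 265 CPM elsewhere. No marker of these lists was at 0 in all libraries. The 6 adipocyte markers, led by the fatty acid binding protein gene Fabp4, had their lowest sums in the same libraries, at 18722 CPM in HFB 6 and 14663 CPM in CTL 14, against 27296 CPM or more in the others, but Retn of this list had 1502.5 CPM in HFB 6, the highest of the HFB libraries. HFB 5, the library with the next highest share among the HFB glands, had lymphocyte sums of 7.74 and 12.4 CPM, and HFB 1 had 57.6 and 265 CPM with a ribosomal protein share of 5.02%. The 5 fibroblast markers, led by Col3a1, also had their lowest sums there, at 23957 CPM in HFB 6 and 22821 CPM in CTL 14, against 32308 CPM or more in the others and 48883 CPM in HFB 5, although Col1a1 was lower in HFB 2 than in HFB 6. The 6 luminal epithelium markers did not share 1 order of libraries. Their sums were 619 CPM in HFB 6, 598 CPM in CTL 14, 578 CPM in HFB 5 and 501 CPM or less in the others, but these were carried by the keratin genes Krt8, Krt18 and Krt19, with Krt8 the most abundant. Epcam and Cdh1 were highest in CTL 7, at 96.8 and 64.2 CPM, and had 51.3 and 38.1 CPM in HFB 6. No luminal marker was at 0 in all libraries. The 3 measured of 5 listed basal epithelium markers, led by Krt17, were highest in CTL 14 and HFB 6, at 146 and 130 CPM, against at most 117 CPM elsewhere and 74.3 CPM in HFB 5, but Tp63 of this list was highest in CTL 7. Ribosomal RNA genes were highest in CTL 11 and HFB 6, at 74180 and 70737 CPM. The part of these markers in the ribosomal protein levels was not tested.

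**Figure D2:**
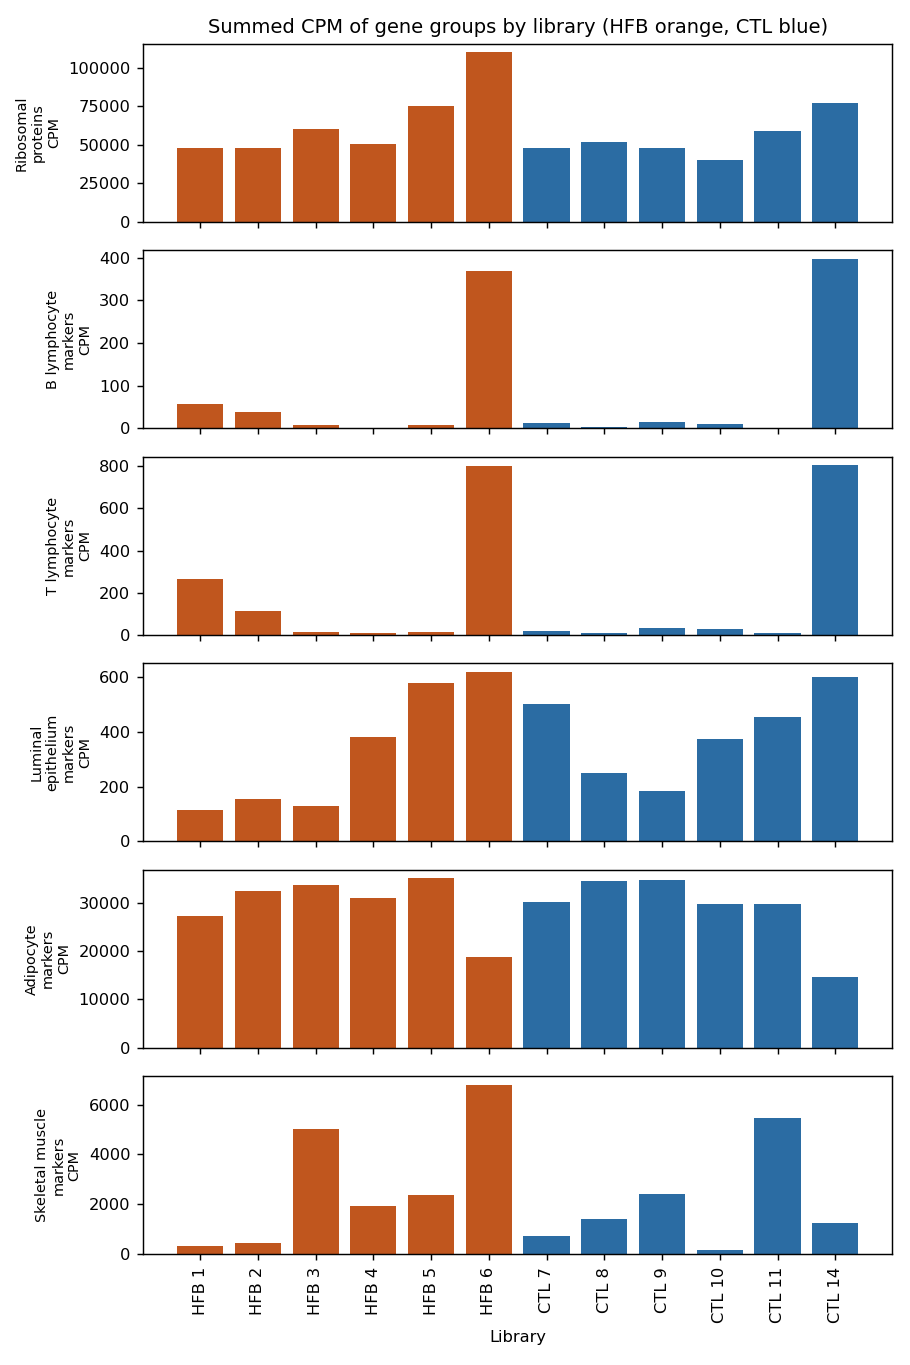
Summed CPM of the ribosomal protein genes and of B lymphocyte, T lymphocyte, luminal epithelium, adipocyte and skeletal muscle markers in each library, HFB in orange and CTL in blue. The sums of lymphocyte markers are highest and that of adipocyte markers lowest in HFB 6 and CTL 14, though Cr2, Pax5 and Retn go another way in HFB 6, while HFB 5 has lymphocyte sums of 7.74 and 12.4 CPM.

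Each gene was then compared between the diets with the quasi-likelihood test of edgeR, fitted on all genes and adjusted over all of them. The p-values measure the spread between glands of different litters. Of the 81 genes, 77 passed the filter on low counts. Of these, 0 had an adjusted p under 0.05, against 0 of 9382 genes (0%), with a smallest adjusted p of 0.999 by edgeR. DESeq2 and limma-voom also gave 0. With unadjusted p-values and the same threshold, 2 of the 77 genes were higher in HFB, where 1.30% of all genes were, and 0 were lower, where 1.04% of all genes were (2.34% in either direction). DESeq2 gave 3 genes and limma-voom 2, where the calls among all genes, in either direction, were 220 in edgeR, 271 in DESeq2 and 613 in limma-voom. The count of 2 was 10 without CTL 14, 4 without HFB 1, 1 without HFB 2 or HFB 3, and 0 without HFB 5, HFB 6, CTL 9 or CTL 10, and it was also 0 with library totals alone. The calls among all genes moved as well, to 587 without CTL 14, 378 without HFB 1, 224 without HFB 2, 168 without HFB 3, 135 without HFB 5, 269 without HFB 6, 181 without CTL 9, 141 without CTL 10 and 223 with library totals. Of the 77 genes 0 had groups that did not overlap, against 0.107% of all genes.

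The fitted levels nevertheless lay on 1 side. All 77 tested genes had a log2 fold change above 0, from 0.03 for Rpl10 to 0.70 for Rpl3l, with a median of 0.28, but when counts were scaled by the sum of the ribosomal protein genes 40 of them were, and the median of all genes was then -0.20. That scaling sets the sum of the group equal in all libraries, so values on both sides of 0 follow from it. Among all 9382 genes 4694 were above 0 with TMM, with a median of 0.00. The medians were 0.40 for the stalk, 0.28 for the rest of the large subunit and 0.34 for the small subunit. The genes share their libraries, so the 77 directions are not independent. Without HFB 6 the number was 62 and the median 0.07. Leaving out HFB 6 and CTL 14 together gave 77 genes and a median of 0.21, and leaving out HFB 5 as well, chosen after seeing the data, gave 65 and 0.08. Scaling by library totals alone gave 73 genes with a median of 0.17 and a median of all genes of -0.10, and the upper quartile gave 75 genes. With limma-voom, which gives outlying libraries less weight, the number was 72 and the median 0.13, an alternative added for this count after seeing the data. The 7 measured of 9 listed red blood cell markers had median sums of 37205 CPM in HFB and 16283 CPM in CTL. Their ranges overlapped, at 12526 to 112210 CPM in HFB and 11240 to 69469 CPM in CTL. With library totals that left out these markers and the ribosomal RNA genes, 73 of the 77 genes were above 0. The median was then 0.19, and the median of all genes -0.08. The part of the red blood cell markers in the directions was not tested.

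**Figure D3:**
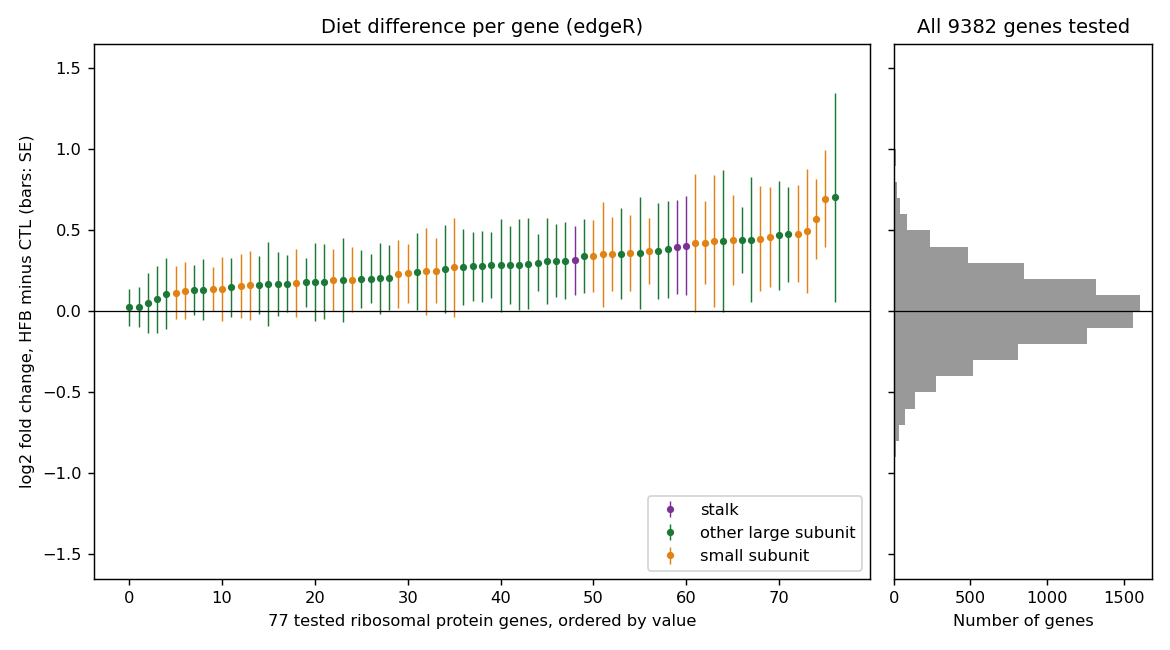
Log2 fold change (HFB minus CTL) with its SE for the 77 tested ribosomal protein genes, ordered by value and colored by role, beside the distribution of all 9382 genes tested. All 77 points are above 0 under TMM scaling, where library totals alone give 73, the sum of the ribosomal protein genes gives 40 and leaving out HFB 6 gives 62, and 0 genes had an adjusted p under 0.05 by edgeR.

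The stalk genes showed the pattern of the whole group. Rplp0, which anchors the stalk to the ribosome, had a lowest, median and highest level of 2155, 2760 and 4672 CPM in HFB and of 2004, 2338 and 3070 CPM in CTL. HFB 6 was the highest library and CTL 10 the lowest. The log2 fold change of Rplp0 was 0.31 with an SE of 0.21, and 0.15 without HFB 6. Rplp1, an acidic stalk protein gene, had 1688, 2295 and 5134 CPM in HFB and 1360, 2069 and 2980 CPM in CTL. For Rplp1, too, HFB 6 was highest and CTL 10 lowest, with a log2 fold change of 0.40 (SE 0.29) that was 0.12 without HFB 6. Rplp2, the partner of Rplp1, had 694, 924.2 and 2161 CPM in HFB and 544, 790 and 1421 CPM in CTL, with a log2 fold change of 0.41 (SE 0.31) that was 0.11 without HFB 6 and 0.64 without CTL 14. The diets overlapped for all 3 genes, and the adjusted p of each in edgeR was 0.999.

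Among the other genes of the large subunit, Rpl19 served the study as a reference gene in qPCR of microdissected samples. It had a lowest, median and highest level of 735, 912 and 1562 CPM in HFB and of 694, 853 and 1116 CPM in CTL, with a coefficient of variation over the 12 libraries of 25.6%. HFB 6 was its highest library and CTL 10 its lowest. Its log2 fold change was 0.21 with an SE of 0.20, and 0.05 without HFB 6.

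Rpl10 and Rpl7a were the steadiest genes of the large subunit on the CPM scale, but as shares of the summed ribosomal protein counts they varied by 19.85% and 19.45%, more than the median gene. Rpl10, whose protein joins late in the assembly of the large subunit, had 530, 574 and 653 CPM in HFB and 495, 559 and 641 CPM in CTL. Its coefficient of variation was 8.71%, the lowest of the 77 genes, and its highest library was HFB 5. Rpl7a had 237, 257 and 313 CPM in HFB and 222, 253 and 316 CPM in CTL, with a coefficient of variation of 11.7%. In HFB 6, where the median gene was 0.95 above its own median on the log2 scale, Rpl7a was 0.01 and Rpl10 0.12 above it. Their log2 fold changes were 0.03 (SE 0.12) for Rpl7a and 0.03 (SE 0.12) for Rpl10, and both were below 0 with library totals alone, with the upper quartile, and without HFB 5, at -0.01 for Rpl10 and -0.03 for Rpl7a.

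Rpl9, another large subunit gene, was among the 5 genes with the smallest unadjusted p. It had 312, 396 and 488 CPM in HFB and 224, 313 and 436 CPM in CTL. The diets overlapped, and the log2 fold change was 0.30 with an SE of 0.18 (edgeR, unadjusted p = 0.111, adjusted p = 0.999).

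In the small subunit, Rpsa, which also codes for the laminin receptor, had 1992, 2393 and 6392 CPM in HFB and 1637, 2127 and 3486 CPM in CTL. HFB 6 was above all other libraries. The log2 fold change of Rpsa was 0.46 with an SE of 0.31 (edgeR, adjusted p = 0.999), and 0.12 without HFB 6. Rps28 had 115, 137 and 531 CPM in HFB and 94.2, 127 and 338 CPM in CTL, with a coefficient of variation of 70.4%. HFB 6 and CTL 14 stood apart, and the log2 fold change of 0.42 (SE 0.43) was -0.11 without HFB 6 and 0.83 without CTL 14. Rps25, by contrast, had 311, 361 and 439 CPM in HFB and 266, 324 and 409 CPM in CTL, with a coefficient of variation of 14.4% and its highest level in HFB 3. As a share of the summed ribosomal protein counts, however, Rps25 varied by 21.65%, more than the median gene.

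The smallest unadjusted p-values belonged to Rps2 and Rps20, both of the small subunit. Rps2 had 281, 545 and 671 CPM in HFB and 201, 352 and 413 CPM in CTL. HFB 3, HFB 4, HFB 5 and HFB 6 were above all CTL libraries, and HFB 1 and HFB 2 were within their range. The log2 fold change was 0.57 with an SE of 0.25 (edgeR, unadjusted p = 0.0368, adjusted p = 0.999). Rps20 was low, with 10 to 41 counts in a library, and had 5.37, 10.4 and 17.6 CPM in HFB and 4.35, 6.13 and 9.81 CPM in CTL. The diets overlapped, and the log2 fold change was 0.69 with an SE of 0.30 (edgeR, unadjusted p = 0.0369, adjusted p = 0.999). Rps26 had 260, 359 and 547 CPM in HFB and 233, 263 and 413 CPM in CTL, with a log2 fold change of 0.37 (SE 0.21) that was 0.24 without HFB 6.

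Paralogs are second copies of a ribosomal protein gene that are often used in particular tissues. Rpl3l, which takes the place of Rpl3 in skeletal and heart muscle, had 3.86, 14.7 and 33.9 CPM in HFB and 0.742, 7.61 and 25.7 CPM in CTL. Its lowest value, in CTL 10, came from 2 counts and is under the limit of 3. Its log2 fold change of 0.70 was 0.40 without HFB 3, 0.46 without HFB 6 or CTL 10 and 1.17 without CTL 11. It was highest in HFB 3, HFB 6 and CTL 11, the libraries with the highest sums of the 7 measured of 8 listed skeletal muscle markers, led by Acta1, at 5040, 6806 and 5476 CPM. The part of muscle in the level of Rpl3l was not tested. Rpl3 itself had 1040, 1223 and 2118 CPM in HFB and 1115, 1169 and 1844 CPM in CTL. The log2 ratio of Rpl3l to Rpl3 had a mean of -6.61 ± 1.05 (SD, n = 6) in HFB and -7.35 ± 1.43 (SD, n = 6) in CTL. The difference of 0.74 was not larger than the spread (two-sided exact permutation test, p = 0.333, adjusted p = 0.485 over 3 pairs), and it was 0.25 without CTL 10, where Rpl3l was under the limit, and 0.43 without HFB 3.

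Rpl22l1, the paralog of Rpl22, had 134, 183 and 322 CPM in HFB and 117, 151 and 173 CPM in CTL. HFB 2, HFB 3, HFB 5 and HFB 6 were above all CTL libraries. Its log2 fold change was 0.44 with an SE of 0.21 (edgeR, unadjusted p = 0.0511, adjusted p = 0.999), and 0.25 without HFB 6. Rpl22 had 331, 412 and 735 CPM in HFB and 285, 390 and 597 CPM in CTL. The log2 ratio of Rpl22l1 to Rpl22 was -1.24 ± 0.22 (SD, n = 6) in HFB and -1.48 ± 0.25 (SD, n = 6) in CTL, a difference of 0.24 (two-sided exact permutation test, p = 0.0952, adjusted p = 0.286).

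Rpl36al1, listed as Rpl36al in older annotation, had 175, 234 and 576 CPM in HFB and 178, 217 and 385 CPM in CTL. HFB 6 and CTL 14 were again the highest libraries. Rpl36a had 7.28, 11.5 and 22.5 CPM in HFB and 9.28, 11.2 and 14.8 CPM in CTL. The log2 ratio of Rpl36al1 to Rpl36a was 4.41 ± 0.35 (SD, n = 6) in HFB and 4.29 ± 0.21 (SD, n = 6) in CTL, a difference of 0.12 (two-sided exact permutation test, p = 0.485, adjusted p = 0.485), which was 0.03 without HFB 2. The smallest p this design allows is 0.0022. Rps27l, Rpl7l1 and Rpl10l were not analysed here, and Rpl39l1 had 8 counts in all libraries together, too few for a ratio to Rpl39.

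The main genes of those pairs were measured. Rps27 had 328, 431 and 1503 CPM in HFB and 263, 388 and 935 CPM in CTL, and HFB 6 and CTL 14 stood apart. Rpl39 had 182, 232 and 389 CPM in HFB and 150, 227 and 255 CPM in CTL. Rpl7 had 843, 941 and 1508 CPM in HFB and 772, 924.4 and 1309 CPM in CTL, with HFB 6 apart from the other HFB libraries.

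The 4 genes that did not pass the filter were near the detection limit. Rpl38 had 49 counts in all, from 0 to 11 in a library, Rps12l4 had 38 and Rpl39l1 had 8. Rpl27l2 had 0 counts in every library. Reads shared with pseudogenes or close copies could have been split or dropped, since the treatment of reads with several matches is not stated, so low counts of single genes are uncertain.

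Within the group, the genes differed in how widely they varied but largely shared the same libraries. HFB 6 was the highest of the 12 libraries for 69 of the 77 tested genes, and CTL 10 was the lowest for 68. The same was not counted over all genes tested, so whether these counts are particular to the group is not known. In HFB 5 all 77 genes were above their own median over the libraries, in HFB 6 75 genes, in HFB 3 and CTL 14 74 genes each and in CTL 11 69 genes, but in CTL 10 only 1. The 8 genes with another highest library were Rpl10, Rpl12, Rpl17, Rpl3l, Rpl7a, Rps20, Rps25 and Rps4y2, of which Rpl12, Rpl17 and Rps4y2 were named after their values were seen. In HFB 6 the log2 level relative to the gene's median was -0.05 for Rps4y2, 0.01 for Rpl7a and 1.96 for Rps28.

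**Figure D4:**
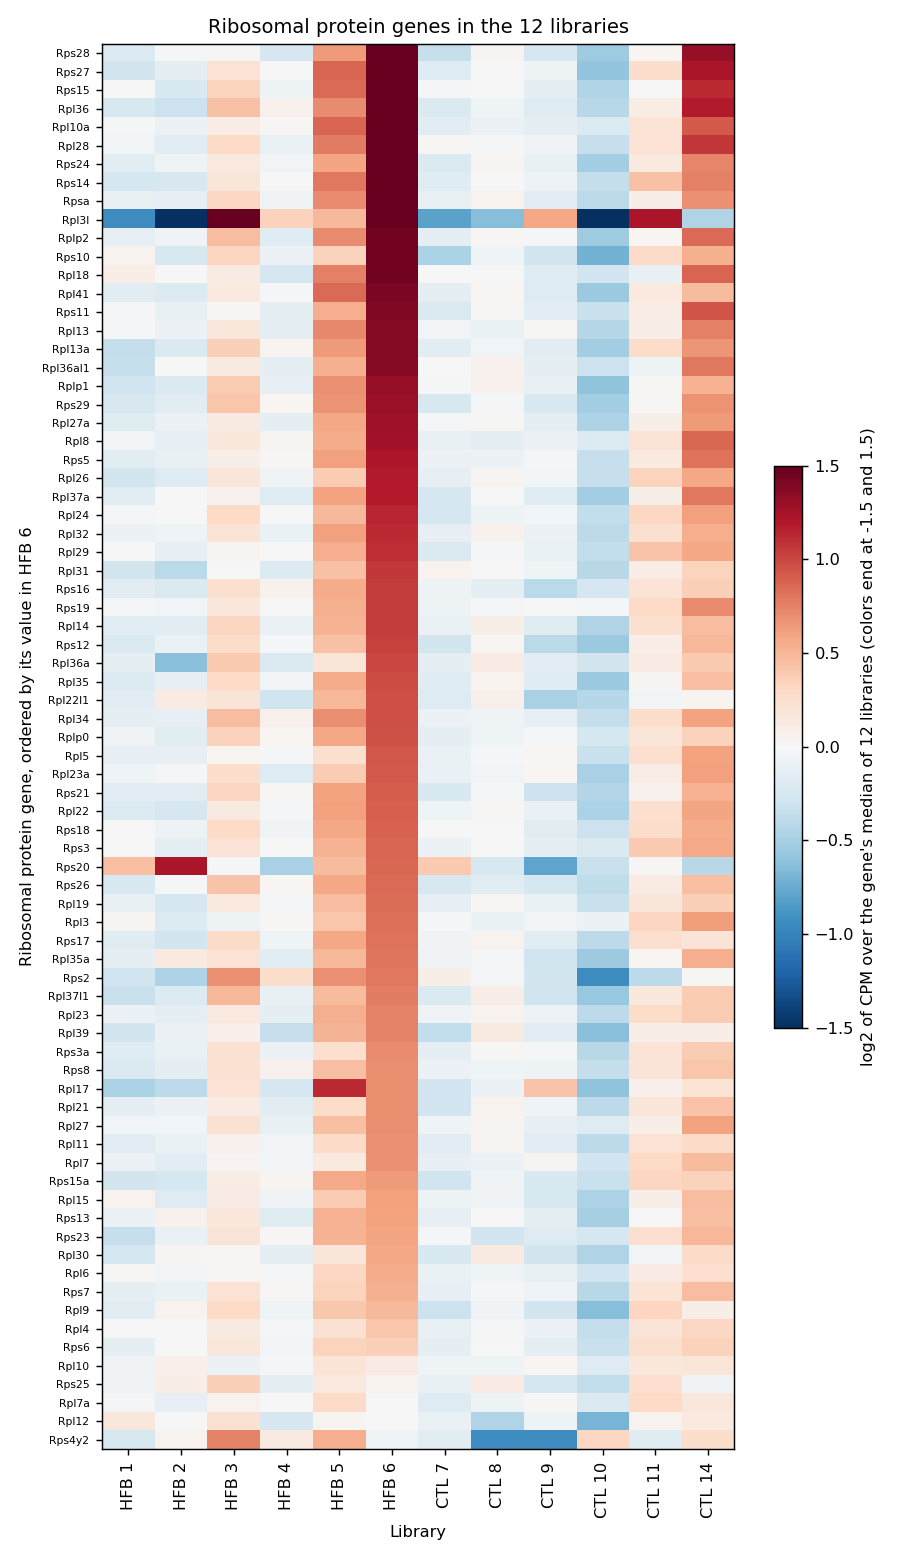
CPM of 76 of the 77 tested ribosomal protein genes in each library, as log2 relative to the gene's median over the 12 libraries, ordered by the value in HFB 6. HFB 6 is the highest library for 69 of the 77 genes and CTL 10 the lowest for 68, which was not counted over all genes tested. Colors are capped at both ends, and the genes at the bottom, among them Rpl10, Rps25, Rpl7a and Rpl12, are near 0 in HFB 6.

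The median coefficient of variation of the 77 genes over the libraries was 31.9%, against 28.0% for all genes tested. The sets were not matched for mean CPM, so these medians do not compare genes of like level. When each gene was expressed as a share of the summed ribosomal protein counts, the median was 10.4%. Rpl32, named after its values were seen, kept the steadiest share, with 3.04%, and Rpl3l varied most, with 71.4%. The share of Rps28 varied by 30.3%. Without HFB 6 and CTL 14, chosen for this measure after seeing the data, the medians were 20.5% for CPM and 8.12% for the share. The value for all genes is given for all libraries together only. Whether the ribosomal protein genes also had the higher median without these libraries was therefore not tested.

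**Figure D5:**
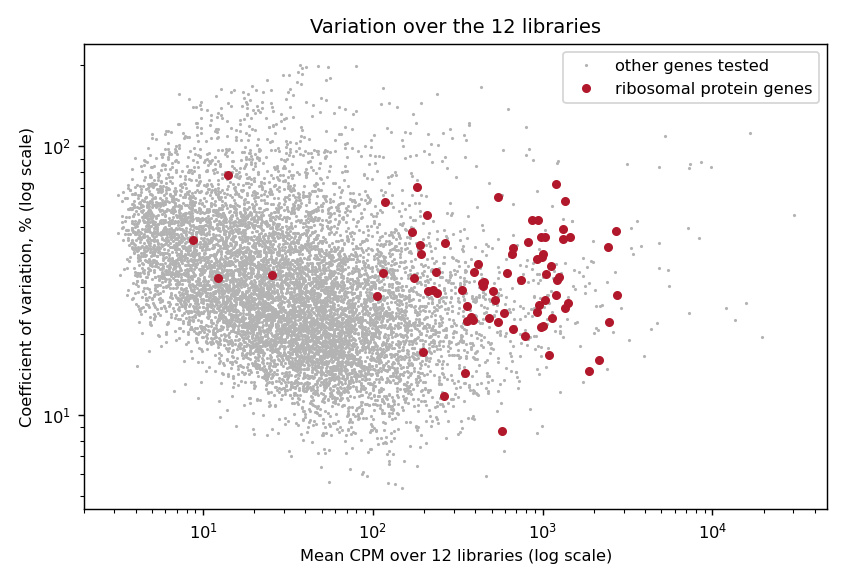
Coefficient of variation over the 12 libraries against mean CPM, both on log axes, for the 77 tested ribosomal protein genes in red and the other genes tested in gray. The ribosomal protein genes run from 8.71% for Rpl10 to 78.2% for Rpl3l.

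Genes that work with the ribosome were described in the same way, and none of their lists held a gene with an adjusted p under 0.05 by edgeR. The 3 measured genes for ribosomal proteins with other names were above 0, with a log2 fold change of 0.37 (SE 0.28) for Fau, which is made as a fusion with a ubiquitin-like part. The value of Fau was 0.08 without HFB 6 and 0.56 without CTL 14, and these and the other alternatives for single genes of the lists were chosen after seeing the data. Of 17 elongation factor and other terminal oligopyrimidine genes, 12 were above 0 with a median of 0.04. Eef1b2, an exchange factor of elongation, had a log2 fold change of 0.24 (SE 0.18), or 0.14 without HFB 6, and Npm1, a nucleolar chaperone gene, of -0.15 (SE 0.11). Of 15 translation initiation factor genes, 10 were above 0 with a median of 0.03. Eif5a had 0.26 (SE 0.15), and Eif3a had -0.19 (SE 0.17), and without HFB 5 these were 0.17 and -0.07.

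Lists of genes that build or control the ribosome had medians near 0, with single genes on both sides. Of 30 tested ribosome biogenesis genes, 13 were above 0, with a median of -0.05 and a range of -0.215 to 0.34. Polr1d, a subunit shared by RNA polymerases I and III, had a log2 fold change of 0.26 (SE 0.12), and Nop10, of the box H/ACA particles, had 0.28 (SE 0.17), or 0.17 without HFB 6. Of 15 tested genes of mTOR and S6 kinase control, 8 were above 0 with a median of 0.02 and a range of -0.20 to 0.30. Akt1s1, an inhibitor of mTOR complex 1, had 0.30 (SE 0.18), or 0.15 without HFB 6. Eif4ebp1, which binds the cap-binding factor, had 0.26 (SE 0.17), or 0.135 without HFB 5. With library totals alone the values were 0.13 for Eef1b2, -0.25 for Npm1, 0.16 for Eif5a, 0.15 for Polr1d, 0.17 for Nop10, 0.20 for Akt1s1 and 0.17 for Eif4ebp1. With limma-voom they were 0.16 for Fau, -0.09 for Npm1, -0.105 for Eif3a, 0.165 for Nop10, 0.15 for Akt1s1 and 0.10 for Eif4ebp1.

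Mitochondrial ribosomal protein genes code for a separate ribosome. Of the 67 tested, 62 were above 0 with a median of 0.19, and 11 had an unadjusted p under 0.05, all higher in HFB, where 1.30% of all genes did. Mrpl37 had 85.2, 108 and 130 CPM in HFB and 75.0, 86.3 and 94.5 CPM in CTL, and Mrps23 had 85.8, 94.3 and 118 CPM and 70.4, 79.4 and 87.9 CPM. The diets overlapped for both, and the log2 fold changes were 0.32 (SE 0.12) and 0.29 (SE 0.11), the latter 0.19 with library totals alone, with adjusted p-values of 0.999 in edgeR. The count of 11 was 0 with library totals alone, and with the sum of the cytosolic genes as the scale it was 0 and the 62 were 26, with 194 calls among all genes in either direction. It was 19 without HFB 4, 5 without HFB 3, CTL 7 or CTL 11, 4 without HFB 5 or CTL 10, 3 without HFB 6 and 2 without CTL 9. The 220 calls among all genes, in either direction, were 389 without HFB 4, 168 without HFB 3, 141 without CTL 7 or CTL 10, 137 without CTL 11, 135 without HFB 5, 269 without HFB 6 and 181 without CTL 9. Without HFB 5, HFB 6 and CTL 14 together, chosen after seeing the data, it was 1, with 509 calls among all genes. Red blood cell marker sums also had the higher median in HFB, and their part in these values was not tested.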

How the data were processed

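The authors deposited raw counts of reads per gene for 12 libraries, 1 gland per litter. Per the submitters' processing notes, CASAVA 1.8, bcl2fastq, TopHat, the rn4 build and DESeq were used, with no roles given. The counting program, annotation, strand and treatment of reads with several matches are not stated.

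Symbols were matched by Entrez identifier to the RefSeq gene table of GRCr8 for 16351 of 16511 genes. Rps19bp1 matched the name pattern as first written and was left out by name. The members and the gene lists were chosen with earlier results of these data known. Named genes were Rplp0, Rplp1, Rplp2, Rpsa, Rpl19, both genes of each paralog pair, genes under the filter, the 5 with the smallest unadjusted p, the 3 with the highest and the 3 with the lowest variation, and 2 of each other list. Some genes that this rule names are not reported here. A further part of this rule and of the design, levels per coding length, was not used, since no protein table was used here, and the levels of different ribosomal protein genes are therefore not ranked. The most abundant marker of a list is by CPM, without regard to length, and paralog ratios are compared between diets only.

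edgeR 4.0.16 in R 4.3.3 was fitted on the 9382 genes kept by filterByExpr (TMM, quasi-likelihood test, Benjamini-Hochberg adjustment, threshold 0.05). Each SE is the size of the log2 fold change over the root of its F value. Paralog ratios used log2 of CPM plus 0.5 and an exact permutation test in Python 3.11.15, for pairs with at least 10 counts for each gene. Alternatives were DESeq2 1.42.0, limma 3.58.1 (voom with quality weights), DESeq2's size factors, upper quartile, library totals, TMM without the members, scaling by the members' sum, a minimum of 10 counts per library or no filter at all, totals without hemoglobin and ribosomal RNA genes, another pseudocount and leaving out libraries. The fits were tested on simulated data, where DESeq2 made a larger share of false calls than edgeR, and the limit set for that share was applied to edgeR only. Changes of a median under an alternative were set against its jackknife error over libraries.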

Additional observations from a re-analysis of the deposited data

Results flagged for a closer look

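In 25 cases among 104 groups of 6 libraries, the library at one end of its group lay apart, with a gap to its nearest neighbour that took up more of the group's range than Dixon's 95% critical value allows. Chance flags about 1 in 20 groups, and the cases are not independent, since most come from the same libraries.

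CTL 14 was apart from the other CTL libraries in the share of counts on ribosomal protein genes (8.74%, others at most 5.76%), Rplp2 (1421 CPM), Rpsa (3486 CPM), Rps27 (935 CPM), Rpl36al1 (385 CPM), Rps28 (338 CPM) and Fau (969 CPM). Its marker sums were also apart, at 397 CPM for B lymphocytes, 805 CPM for T lymphocytes, 319 CPM for endothelium and, on the low side, 14663 CPM for adipocytes. Of the endothelium sum 240.2 CPM were Pecam1, while Cdh5 at 27.5 CPM and Tek at 51.1 CPM were within the range of the other CTL libraries.

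HFB 6 was apart from the other HFB libraries in Rpsa (6392 CPM), Rps27 (1503 CPM), Rpl36al1 (576 CPM), Rpl7 (1508 CPM) and Rps28 (531 CPM). Its marker sums were 369 CPM for B lymphocytes, 803 CPM for T lymphocytes, 305 CPM for endothelium and 70737 CPM for ribosomal RNA. Of the endothelium sum 256 CPM were Pecam1, while Cdh5 was lowest of all libraries, at 2.81 CPM. The part of these markers in the ribosomal protein levels was not tested.

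In other libraries, CTL 11 had 74180 CPM of ribosomal RNA and 1.26 CPM of Rpl39l1, the latter from 3 counts. HFB 5 had 364 CPM of Eif4ebp1. Red blood cell marker sums were 112210 CPM in HFB 2 and 69469 CPM in CTL 9. Their medians were 37205 CPM in HFB and 16283 CPM in CTL.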

How the results depend on the processing

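No ribosomal protein gene had an adjusted p under 0.05 under any alternative tried, with edgeR, DESeq2 or limma-voom. The 2 genes at an unadjusted p under 0.05 became 0 with library totals, 0 with scaling by the members' sum, 0 without HFB 5, HFB 6 and CTL 14 (chosen after seeing the data, as were all values without these 3 libraries) and 0 to 10 when single libraries were left out.

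The 77 genes above 0 became 40 with scaling by the members' sum, which sets the sum of the group equal in all libraries, with a median of 0.01 and a median of all genes of -0.20. Leaving out single libraries gave 62 to 77 genes and medians of 0.07 to 0.41. The median coefficient of variation was 20.5% for CPM and 8.12% for the share without HFB 6 and CTL 14, and 13.7% and 6.74% without HFB 5 as well. A tract within 20 bases of the start was found in 83.1% of windows.

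Of the 77 genes, 40 were above 0 with scaling by the members' sum, 75 with the upper quartile, 73 with library totals, 72 with limma-voom and 65 without HFB 5, HFB 6 and CTL 14. The sign changes given here are those of the genes named by rule. With scaling by the members' sum, the log2 fold change was -0.061 for Rpl19, -0.17 for Rpl3, -0.076 for Rpl22, -0.022 for Rpl36al1, -0.12 for Rpl36a, -0.18 for Rpl7, -0.17 for Rpl10, -0.17 for Rpl7a -0.056 for Rps25 and, chosen after seeing the data, -0.007 for Eif4ebp1, but signs on both sides follow from this scaling, so these values say nothing of single genes. With library totals it was -0.033 for Rpl3, -0.053 for Rpl7, -0.075 for Rpl10 and -0.068 for Rpl7a. With limma-voom it was -0.04 for Rpl3, -0.004 for Rpl36a and -0.001 for Rpl7, and with the upper quartile -0.005 for Rpl10 and -0.002 for Rpl7a. Without HFB 5, HFB 6 and CTL 14 it was -0.07 for Rpl3, -0.023 for Rpl22, -0.03 for Rpl36a, -0.037 for Rpl7 and -0.003 for Rpl10, and among genes of other lists 0.09 for Fau, 0.135 for Eef1b2, -0.056 for Npm1, 0.16 for Eif5a, -0.045 for Eif3a, 0.097 for Nop10, 0.11 for Akt1s1, 0.027 for Eif4ebp1 and 0.205 for Mrpl37. Without HFB 6 and CTL 14 Npm1 had -0.098, also chosen after seeing the data.

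Leaving out single libraries gave ranges of -0.085 to 0.211 for Rpl3, -0.033 to 0.780 for Rps27, -0.029 to 0.494 for Rpl36al1, -0.06 to 0.29 for Rpl36a, -0.091 to 0.163 for Rpl7 and -0.11 to 0.83 for Rps28, each lowest without HFB 6. The ranges were -0.011 to 0.074 for Rpl10 and -0.028 to 0.090 for Rpl7a, each lowest without HFB 5. The cause was not tested. With 1 gland per litter and no pairing of litters given in the labels, no paired analysis was made.

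At 2320267 to 2944680 counts per library, genes such as Rpl38 and Rps12l4 were too low for a fold change. The strand and the handling of reads with several matches are not stated, so levels of genes with close copies or pseudogenes are uncertain.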

Other observations

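Some genes of translation were low where ribosomal protein genes were high, and they were chosen after their values were seen. Eif4ebp2, which binds the cap-binding factor, had 11.6 CPM in HFB 5, 2.81 CPM in HFB 6 and 9.51 CPM in CTL 14, and 27.7 CPM or more in the other libraries. Pdcd4, an inhibitor of the helicase of initiation, had 57.3, 20.04 and 70.1 CPM in these libraries and 73.7 CPM or more elsewhere. Pabpc1, which binds poly(A) tails, had 322, 142 and 388 CPM there and 508 CPM or more elsewhere, and Eif4g2 had 856, 661 and 804 CPM against 1582 CPM or more. Fbl, the methyltransferase gene of ribosomal RNA, was high in the same libraries, at 125, 251 and 190 CPM, and at most 90.2 CPM in the others.

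Rows now annotated as pseudogenes were left out of the members but held reads. Rps4x-ps9, for which the gene table lists Rps4x as a synonym, had 3891 to 7665 counts in a library, Rps27a-ps1 had 1286 to 3356, Rpl14l1 had 470 to 746 and Rpl17-ps16 had 241 to 550. Rps4x-ps9 and Rps27a-ps1 were highest in HFB 6, at 7665 and 3356 counts. Rpl14l1 was highest in HFB 5, at 746 counts, and Rpl17-ps16 in HFB 3, at 550 counts. In HFB 6 they had 562 and 488 counts.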
